A study of Mus musculus with 14 samples.

Results

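The accessible chromatin at Gata4 was followed while mouse embryonic stem (ES) cells were converted towards primitive endoderm (PrE) by induced GATA6. Gata4 (ENSMUSG00000021944) lies on the minus strand of chromosome 14 at 63198922 to 63271692 (GRCm38, GENCODE M21). The peak lists of all libraries were combined into 124598 regions by joining peaks that share 1 bp or more, and a region was assigned to Gata4 if the nearest protein-coding transcription start site to its midpoint, within 50 kb, was one of Gata4. This gave 20 regions. The annotation places the main start sites of Gata4 at 63245271 and 63245248, distal upstream ones at 63271124 and 63271692, and an internal one at 63213607. Regions are named here by the distance of their midpoint from 63245271, with negative values upstream of it. Several negative positions fall in an intron of the distal transcripts.

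The assay was ATAC-seq, in which a transposase cuts and tags accessible DNA. The cells came from 1 ES cell line, KH2 (strain label C57BL/6), and all of them, the 0 h cells included, carried a GATA6 transgene with the red fluorescent protein DsRed2 under a doxycycline (Dox)-responsive promoter. At each of 0, 2, 4, 8, 16, 24 and 48 h 2 libraries were made, 14 in all, from 50000 cells each. Cells at 0 h were in 2i medium with LIF (a serum-free medium with 2 kinase inhibitors) and had received no Dox, and all later cells were in serum medium with LIF. Dox, at 1 µg/mL, was present throughout up to 8 h. It was present for 12 h and then withdrawn for the cells taken at 16, 24 and 48 h. The change of medium and the induction began together, so their effects cannot be told apart. The labels do not say whether the libraries of a time point came from separate cultures, and p-values measure only the spread between these libraries.

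GATA4 is a zinc finger transcription factor that binds the same short DNA word as GATA6, and both are markers and regulators of PrE, the layer of the blastocyst that forms the yolk sac endoderm. GATA4 is also known for its roles in heart and gut. In the accepted order of events in the embryo, GATA6 acts in PrE precursors before GATA4, SOX17 and SOX7 follow. The data here measure accessibility of the Gata4 locus and not the level of its transcript.

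The stretches that the results turn on are printed first, each as 300 bp of the plus strand of GRCm38 (RefSeq assembly sequence), that is, the strand opposite to Gata4. Capitals mark matches to a GATA word (AGATAA or TGATAA, or either with G as its last letter) on either strand. The first 4 are shown because they were called in more of the later libraries and hold the most such matches among the regions that were. The last is the middle of the one region that was called in every library, and it holds none. Peaks of some later libraries cover only part of that window, and the whole region, of 1071 bp, holds 4.

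The -38.6 kb region, intergenic, is shown at its midpoint, chr14:63283674-63283973. The +13.7 kb region, intronic, is shown at the midpoint of its highest-ranked peak, chr14:63231133-63231432. The -20.1 kb region, in an intron of the distal transcripts, is shown at chr14:63265260-63265559. The -52.2 kb region, intergenic, is shown at chr14:63297326-63297625. The -10.7 kb region, in an intron of the distal transcripts, is shown at chr14:63255799-63256098.
-38.6 kb region: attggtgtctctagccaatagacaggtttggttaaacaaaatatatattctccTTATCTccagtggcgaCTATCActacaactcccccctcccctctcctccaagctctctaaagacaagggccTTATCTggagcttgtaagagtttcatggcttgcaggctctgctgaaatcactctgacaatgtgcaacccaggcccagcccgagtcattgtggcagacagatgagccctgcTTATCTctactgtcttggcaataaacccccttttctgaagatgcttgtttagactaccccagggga
+13.7 kb region: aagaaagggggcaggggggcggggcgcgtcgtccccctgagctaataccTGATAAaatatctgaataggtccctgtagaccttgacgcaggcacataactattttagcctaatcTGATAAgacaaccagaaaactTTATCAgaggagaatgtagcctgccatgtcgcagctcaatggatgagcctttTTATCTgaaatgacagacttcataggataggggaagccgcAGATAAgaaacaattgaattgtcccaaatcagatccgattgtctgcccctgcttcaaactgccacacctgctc
-20.1 kb region: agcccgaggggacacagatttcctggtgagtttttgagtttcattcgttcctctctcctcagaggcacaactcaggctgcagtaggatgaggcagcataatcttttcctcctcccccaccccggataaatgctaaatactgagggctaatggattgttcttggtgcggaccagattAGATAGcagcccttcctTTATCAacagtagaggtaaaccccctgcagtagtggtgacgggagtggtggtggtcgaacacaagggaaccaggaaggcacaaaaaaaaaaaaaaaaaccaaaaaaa
-52.2 kb region: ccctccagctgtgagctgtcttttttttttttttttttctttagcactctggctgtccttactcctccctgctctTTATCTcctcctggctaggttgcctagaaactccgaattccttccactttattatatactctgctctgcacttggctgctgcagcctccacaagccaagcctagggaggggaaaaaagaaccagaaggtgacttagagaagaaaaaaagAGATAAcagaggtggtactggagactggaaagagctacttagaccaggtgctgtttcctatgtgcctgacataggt
-10.7 kb region: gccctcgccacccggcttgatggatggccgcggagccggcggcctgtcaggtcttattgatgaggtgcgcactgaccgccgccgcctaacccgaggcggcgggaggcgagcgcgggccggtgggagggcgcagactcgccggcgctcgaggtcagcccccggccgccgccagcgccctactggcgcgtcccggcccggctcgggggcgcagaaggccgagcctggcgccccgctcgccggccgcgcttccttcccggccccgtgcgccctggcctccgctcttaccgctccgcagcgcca

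The locus went from few to many peaks within 8 h. The 0 h libraries called 2 and 4 of the 20 regions, a mean of 3 ± 1.41 (SD, n = 2). At 2 h both libraries called 4, and at 4 h they called 7 and 8. The mean for 8 h was 12.5 ± 0.707, for 16 h it was 13.5 ± 0.707, for 24 h it was 11 ± 1.41 and for 48 h it was 12 ± 1.41 (SD, n = 2 each). Every library from 4 h on exceeded both 0 h libraries, and from 8 h on the libraries called 10 to 14. Base pairs under peaks numbered 1537 ± 502 for 0 h, 3474 ± 205 for 4 h, 6659 ± 838 for 8 h and 6690 ± 970 for 48 h (SD, n = 2 each). Over the whole genome the share of regions called did not move in this way, with mean values between 42.7% and 48.6% at the 7 time points. The whole lists held between 55588 and 65073 peaks and covered 23.0 to 31.2 Mb per library. Read numbers are not in these lists, so depth is unknown, and a region that was not called may have been accessible below the calling threshold of its library.

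**Figure D1:**
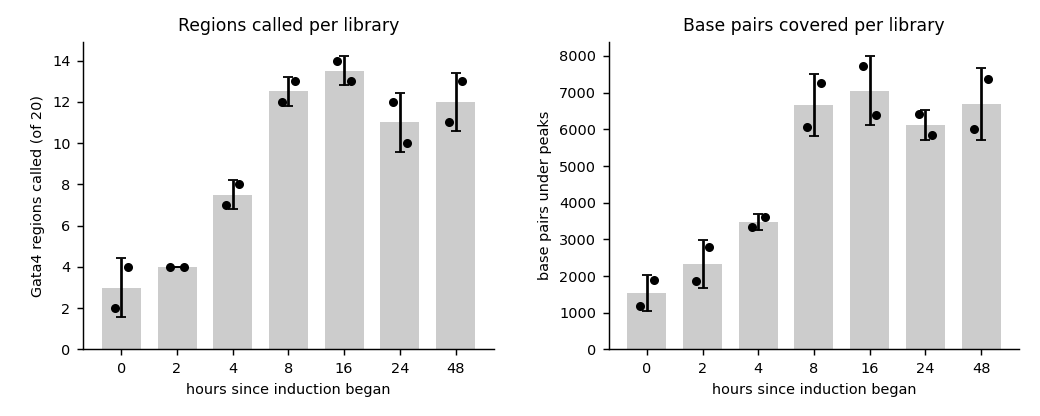
Number of the 20 Gata4 regions called (left) and base pairs under their peaks (right) at each time point. Dots are the 2 libraries, bars the mean and error bars the SD, and time points are evenly spaced. The libraries from 8 h on hold 10 to 14 called regions, against 2 and 4 at 0 h.

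A region was counted as gained at a time point if both of its libraries called it and neither 0 h library did, and as lost in the reverse case. A two-sided exact test of 2 libraries with 2 others cannot go below p = 0.333, and none was run on these counts. The gains at Gata4 were 1 region for 2 h (8.64% of all 124598 regions were gained), 6 for 4 h (10.1%), 9 for 8 h (11.1%), 9 for 16 h (13.3%), 8 for 24 h (11.6%) and 8 for 48 h (14.5%). The 8 regions gained at 48 h were 40% of the Gata4 regions. The region at -68.7 kb alone met the rule for a loss, at 2 h (6.25% of all regions were lost), 4 h (7.37%), 24 h (13.2%) and 48 h (16.6%).

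The order of the libraries in time was tested for each region called in 3 to 11 of the 14 libraries. The statistic was the sum of the ranks in time of the calling libraries, and its two-sided p came from an exact permutation. The Benjamini-Hochberg (BH) adjustment ran over all 55973 regions tested. Of the 20 Gata4 regions 13 could be tested, and 6 rose, at +13.7, -16.3, -19.5, -20.1, -38.6 and -52.2 kb. Without the 0 h libraries, the only ones in 2i medium, 3 of these passed the same exact permutation test, at -16.3 kb (adjusted p = 0.0417) and at -19.5 and -52.2 kb (0.0175 each). The other 3 were called in too many of the remaining 12 libraries to be tested. No Gata4 region fell by this exact permutation test. At an unadjusted p below 0.05 there were 8, all later in time and none earlier, of which -11.4 and -26.5 kb missed the threshold after adjustment. The same unadjusted threshold was met, in either direction, by 25040 of all 55973 regions tested. Among all regions tested 18.1% rose and 18.2% fell. A region that was called in the middle of the course, as at +23.2 kb, cannot pass a test of this form. Since the libraries are bulk samples, more cells with an open site and a wider opening in each cell cannot be told apart.

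**Figure D2:**
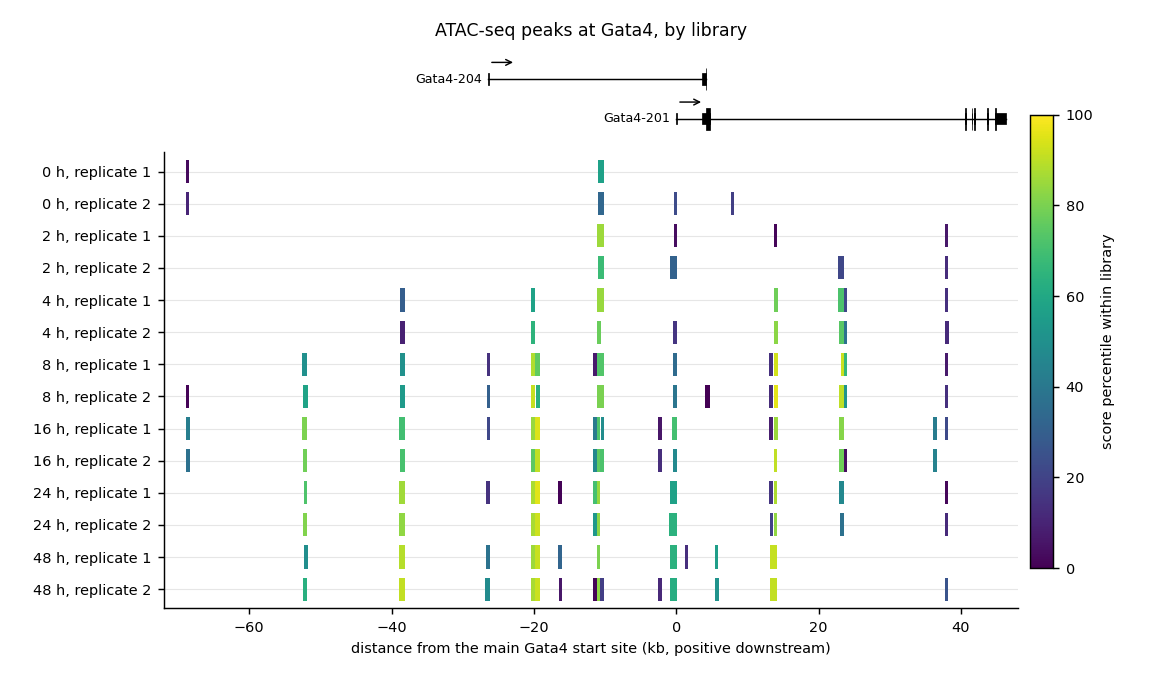
Peaks of the Gata4 regions in each of the 14 libraries, against the distance from the main start site in kb, with the main transcript and the longest distal one above (thick blocks are coding exons, arrows the direction of transcription). Colour gives the score percentile within the library, and peaks under 500 bp are drawn at that width. Both 0 h libraries hold peaks at -10.7 and -68.7 kb, and from 8 h on all libraries hold peaks between -52.2 and +13.7 kb.

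The authors' peak score was used as a percentile, the rank of the highest-scoring peak of a region among all peaks of the same library, in percent from the lowest to the highest. Percentiles exist only where a region was called. They show the standing of a peak within its list and are not a level that can be compared as a fold change between libraries.

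The intronic site at +13.7 kb (63231051 to 63232158) was among the first to reach a high standing. It was called in neither 0 h library and in 1 of 2 at 2 h, at percentile 1.19. Its percentiles were 77.9 and 82.6 at 4 h, 93.2 and 96.0 at 8 h, 85.0 and 90.3 at 16 h, 87.8 and 83.3 at 24 h, and 91.2 and 91.0 at 48 h. Every library from 4 h on thus held this site in the upper part of its list. The rise in calls passed the threshold (adjusted exact permutation p = 0.0317), and it did so in each of the 11 fits without 1 library in which the region could be tested. When regions called in 1 to 13 libraries were all tested, the adjusted exact permutation p was 0.0600. The length under peaks was 439 and 446 bp at 4 h and 1027 and 1070 bp at 48 h. Of the 300 bp around its highest-ranked peak, printed above, 5 GATA matches were found, a number reached by 0.681% of all regions in the same kind of window and by 1.74% of all rising regions. The window at the midpoint of the merged region, 322 bp away, held 1.

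The intergenic site at -38.6 kb (63283381 to 63284266) climbed through its lists step by step. It was absent at 0 and 2 h and had percentiles of 29.6 and 9.27 at 4 h, 50.2 and 54.0 at 8 h, 69.9 and 70.9 at 16 h, 85.6 and 83.5 at 24 h, and 88.9 and 91.0 at 48 h. From 4 to 48 h the pairs of libraries do not overlap from one time point to the next. Its rise in calls had an adjusted exact permutation p of 0.00915, and 0.0115 to 0.0157 with each library left out in turn. This site had the largest number of GATA matches at a region midpoint among the 20, with 4, a number that 2.05% of all regions and 5.83% of all rising regions reached.

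Both sites near -20 kb lie in an intron of the distal transcripts, 115 bp apart. The narrow one at -20.1 kb (63265273 to 63265546) came first. It was not called at 0 or 2 h and had percentiles of 57.7 and 64.7 at 4 h, 88.1 and 91.1 at 8 h, and 74.9 to 87.2 in the 6 later libraries. Its neighbour at -19.5 kb (63264381 to 63265157) was called in no library up to 4 h. It had percentiles of 75.6 and 63.2 at 8 h, 94.8 and 90.3 at 16 h, 95.3 and 92.3 at 24 h, and 91.7 and 92.0 at 48 h. At 4 h only the narrow site was called, whereas from 16 h on the wide one ranked higher in each of the 6 libraries. Both rose (adjusted exact permutation p = 0.00915 each), with 2 GATA matches in the window of -20.1 kb and 1 in that of -19.5 kb. In such windows 17.9% of all regions and 38.1% of all rising ones held 2 or more. At least 1 was held by 45.1% of all regions and 68.3% of all rising ones.

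A second intergenic site, at -52.2 kb (63297044 to 63297908), first appeared at 8 h with percentiles of 49.9 and 58.1. It reached 80.2 and 78.3 at 16 h and 72.2 and 80.9 at 24 h, and stood at 48.9 and 63.2 at 48 h. The 48 h values overlap those of 8 h and lie below those of 16 and 24 h, while the calls themselves rose over time (adjusted exact permutation p = 0.00915). The pattern of calls was the same as at -19.5 kb, and 719 of all regions had it. The pattern of -20.1 and -38.6 kb was found at 1215.

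The last rising site, at -16.3 kb (63261417 to 63261723), was weak. It was called in 1 library at 24 h, at percentile 0.653, and in both at 48 h, at 32.3 and 5.97. All 3 calls are late ones, and 2 of them are among the lowest peaks of their lists. Its adjusted exact permutation p was 0.0317, and 0.0600 when regions called in 1 to 13 libraries were tested. The region at +5.7 kb, in the intron after the first coding exon of the main transcripts, was called at 48 h only, with percentiles of 55.6 and 51.2. It was gained at 48 h, but with 2 calls it was outside the test.

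**Figure D3:**
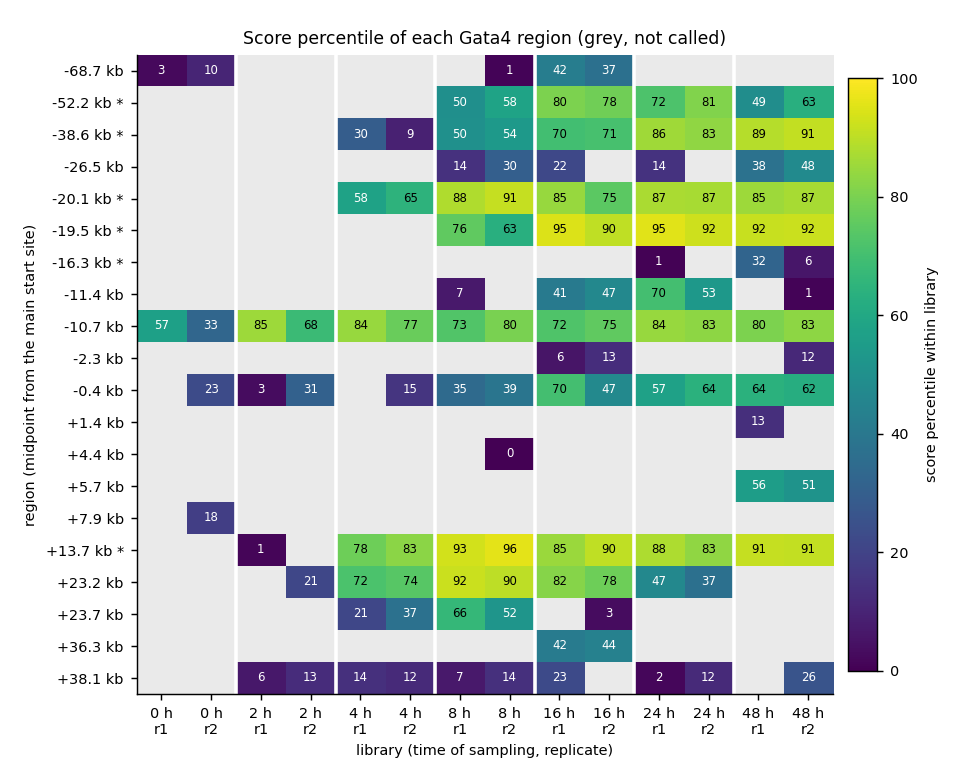
Score percentile of each of the 20 Gata4 regions (rows, from upstream to downstream) in each of the 14 libraries (columns). Grey cells were not called, and a star marks the 6 regions that rose over time. The 2 libraries of a time point hold like values at most called regions, and the sites at +13.7, -19.5, -20.1 and -38.6 kb end the course above percentile 85.

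The main and the distal Gata4 start sites were in or near 2 regions, while the nearest region midpoint to the internal one was 4674 bp away. At the main promoter the region at -0.4 kb (63245194 to 63246227), which covers the start of the main transcripts, was already called in 1 of 2 libraries at 0 h, at percentile 22.7. Its values were 3.47 and 31.2 at 2 h, 15.5 in the only calling library at 4 h, 34.5 and 38.8 at 8 h, 70.2 and 46.9 at 16 h, 57.3 and 63.7 at 24 h, and 64.1 and 62.3 at 48 h. All libraries from 16 h on stand above all earlier ones. With 12 calls it was outside the test of calls, and when regions called in 1 to 13 libraries were tested the adjusted exact permutation p was 0.434. The length under the peak was 321 bp in the calling 0 h library, 957 and 998 bp at 48 h, and 961 bp in 1 of the 2 h libraries. No GATA word was present in either 300 bp window of this region, while the whole region, of 1034 bp, held 1.

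The distal promoter was called in fewer libraries. The region at -26.5 kb (63271391 to 63272096) has its midpoint 52 bp from the start site at 63271692. It was called in no library up to 4 h, in both at 8 h with percentiles of 14.3 and 30.3, in 1 at 16 h at 21.7, in 1 at 24 h at 14.5, and in both at 48 h at 37.7 and 47.9. It stayed below the middle of every list, and the 48 h libraries are its highest. It was gained at 8 and at 48 h, but its trend missed the threshold (adjusted exact permutation p = 0.0604). Without 1 of the 8 h libraries, or without replicate 2 of 16 h or of 24 h, it passed, with adjusted exact permutation p values from 0.0231 to 0.0460. Its window held 2 GATA matches, with 2 or more in 17.9% of all regions.

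A stretch at -10.7 kb (63255414 to 63256484), in an intron of the distal transcripts, was the one Gata4 region called in all 14 libraries. Its percentiles were 57 and 32.9 at 0 h, 85.5 and 68.3 at 2 h, 84.5 and 77.1 at 4 h, 72.8 and 80.0 at 8 h, 72.5 and 75.5 at 16 h, 84.4 and 83.1 at 24 h, and 80.1 and 83.0 at 48 h. Both 0 h values lie below all later ones. The 8 and 16 h values overlap each other and lie below those of 24 and 48 h, whereas 2 and 4 h overlap the later time points. Spearman's rho of the percentile with time was 0.44 (exact two-sided permutation p = 0.117, adjusted p = 0.218 over 18807 regions called in all libraries, of which 19.5% rose), and it was 0.11 without the 0 h libraries. The length under its peaks varied as well. They covered 757 and 810 bp at 0 h and 444 and 514 bp at 24 h, where the peak began at 63256012 and 63255971, against 63255474 and 63255414 at 0 h. At 48 h one library covered 437 bp and the other 944 bp in 2 peaks. This stretch was the most GC-rich of the 20, with 78.0% of G and C in the printed window against a median of 51.3% over the Gata4 regions and 50.3% over all regions.

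Next to it, a narrow region at -11.4 kb (63256536 to 63256866) was called from 8 h on. It had percentile 6.81 in 1 library at 8 h, 41.1 and 46.8 at 16 h, 70.3 and 53.3 at 24 h, and 1.06 in 1 library at 48 h. It was at its highest at 24 h and absent from the 48 h replicate 1 library. The trend of its calls missed the threshold (adjusted exact permutation p = 0.0604) and passed it without that 48 h library (0.0121).

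Some intronic sites were called only in the middle of the course. The longest-lasting was +23.2 kb (63221687 to 63222479), which was absent at 0 h and called in 1 library at 2 h, at percentile 21.3. It stood at 71.5 and 74.1 at 4 h, 92.0 and 90.1 at 8 h, 82.0 and 77.8 at 16 h, and 46.7 and 37.0 at 24 h, and was absent from both libraries at 48 h. The pairs of libraries are apart at each step, up to 8 h and down from there. By calls alone it was gained at 4, 8, 16 and 24 h and not at 48 h, and its trend over the whole course was not called (adjusted exact permutation p = 0.789). Around its highest-ranked peak it held 3 GATA matches, with 3 or more in 6.55% of all regions, and none around the midpoint of the merged region, 143 bp away.

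The adjacent narrow region at +23.7 kb followed with lower values. It was called in both libraries at 4 h, with percentiles of 21.3 and 37.4, in both at 8 h, at 66.5 and 52.2, and in 1 at 16 h, at 3.43. The 8 h libraries were its highest, as for its neighbour. It had no GATA match. The region at +36.3 kb was called at 16 h only, at 41.7 and 44.1.

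At +38.1 kb, 6391 bp from the internal start site, a region was called in both libraries from 2 to 8 h, and in 10 of 14 libraries in all. It was the first to be gained, yet its percentiles stayed between 1.95 and 26.0, and the test of its calls gave an adjusted exact permutation p of 0.789. The remaining weak regions were at -2.3 kb (both 16 h libraries and 1 at 48 h), +1.4 kb (1 library at 48 h), +4.4 kb, over the first coding exon of the main transcripts (1 library at 8 h), and +7.9 kb (1 library at 0 h). None of their percentiles exceeded 18.4.

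The only region lost at 48 h, at -68.7 kb (63313648 to 63314200), had the low percentiles of 2.55 and 10.2 in the 0 h libraries and was called in none at 2, 4, 24 and 48 h. In between it was called in 1 library at 8 h, at 0.909, and in both at 16 h, at 42.5 and 37.1. Its highest values were therefore at 16 h and not at 0 h. No trend was called (adjusted exact permutation p = 0.484). Without replicate 1 of 0 h the +7.9 kb region also met the rule for a loss, which made 2. The -68.7 kb region is also the outermost that the distance rule kept, at 42.2 kb from the nearest Gata4 start site, and the nearest one outside the limit was 53.8 kb away and was called in 1 library at 16 h, 1 at 24 h and both at 48 h.

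**Figure D4:**
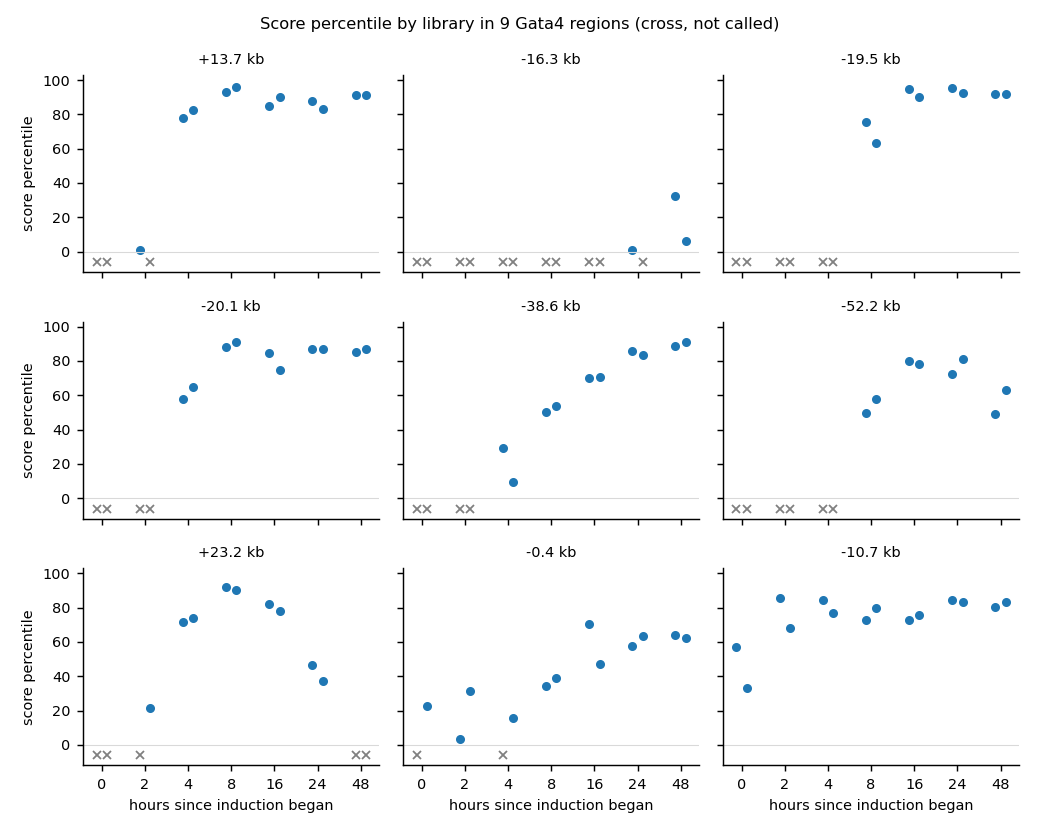
Score percentile in each library for 9 Gata4 regions, the 6 that rose and those at +23.2, -0.4 and -10.7 kb. Dots are libraries, crosses libraries without a call, and time points are evenly spaced. The +13.7 and -20.1 kb sites are above percentile 55 from 4 h on, -38.6 kb climbs to 48 h, and +23.2 kb is highest at 8 h and absent at 48 h.

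By the first time point at which both libraries called a region, 2 regions belong to 0 h, 2 to 2 h, 5 to 4 h, 3 to 8 h, 3 to 16 h and 2 to 48 h, and 3 were never called in both. This order is a description, and no share over all regions is given beside it or beside the counts drawn from it. Whether it differs from the course of all regions was not tested. The regions first called in both at 4 h lie on either side of the main start site, at +13.7, +23.2, +23.7, -20.1 and -38.6 kb. Those of 8 h, at -19.5, -26.5 and -52.2 kb, are all upstream of it. Of these 8 regions 6 were still called in both libraries at 48 h, and +23.2 and +23.7 kb were not. Libraries of the same time point disagreed on a Gata4 region in 17 of the 72 cases in which at least 1 of them called it, or 23.6%, against 25.4% over all regions.

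GATA words were set beside other words in the same 300 bp windows, on both strands, as a description of the sequence and not of binding. A GATA word was present in 10 of the 20 Gata4 windows and in 45.1% of all. It was present in all 6 of the rising Gata4 regions, against 68.3% of all rising regions and 36.1% of all falling ones, and in 7 of the 8 gained at 48 h, against 67.9% of all gained regions. The permuted control words were AAGTAA or TAGTAA, or either with G as its last letter. They were present in 4 of the 6 rising Gata4 regions and in 32.5% of all rising regions. The count among 6 regions thus separates the word from its control by 2 regions. Of the 8 regions gained at 48 h, 5 held a control word, against 33.9% of all gained regions.

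Words of other factors were rarer. The SOX word ACAATG was in 3 of the 20 windows (18.3% of all), among them -38.6 kb with 2 copies. The AP-1 word TGANTCA was in 2 (15.4% of all), at +23.7 and -26.5 kb. The FOXA word TGTTTAC was in 1 (4.51% of all), and the octamer ATGCAAAT of OCT4, the POU factor of ES cells, in 0 (3.17% of all). No word of one set is also a word of another.

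Other genes of the GATA6 and PrE programme were described with the same rules, over 17 genes that encode GATA cofactors, PrE transcription factors, a receptor and products of the mature endoderm. They had 253 regions, of which 118 could be tested. In this list 50 regions rose in 16 genes and 12 fell in 8 genes, against 6 rising and 0 falling at Gata4 and 18.1% rising and 18.2% falling among all regions tested. No region fell in the other 9 genes of the list either. Of the 253 regions, 30.8% were gained at 48 h, against 40% at Gata4 and 14.5% of all. The share was larger than at Gata4 in 5 of the 17 genes. These were Sox17 and Sox7, which encode SOX factors of PrE, with 63.6% and 50%, Hnf4a, which encodes an endoderm transcription factor, with 42.9%, Cubn, an endocytic receptor of yolk sac endoderm, with 46.7%, and Pdgfra, a PrE surface receptor, with 40.9%.

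The gains are given side by side for a few of these genes, where 10.1% of all regions were gained at 4 h and 14.5% at 48 h. Gata4 had 6 of 20 at 4 h and 8 at 48 h. Sox17, with 11 regions in all, had 1 gained at 4 h and 7 at 48 h. Hnf4a, with 14, had 1 and 6. Foxa2, which encodes a forkhead factor of endoderm, had 3 at 4 h and 7 at 48 h among 18 regions. Gata6 itself, which is also the transgene, had 2 at 4 h and 3 at 48 h among 18, and its called share went from 19.4% at 0 h to 58.3% at 16 h and 41.7% at 48 h. At Gata4 the called share went from 15% at 0 h through 37.5% at 4 h and 62.5% at 8 h to 60% at 48 h. With so few regions several of these counts are near the shares of all regions, and the difference between genes was not tested.

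Among 2433 genes with at least 10 regions, the 6 whose share of regions called followed that of Gata4 most closely were named. The measure was the root mean square difference over the 14 libraries, so differences between libraries of the same time point enter it. Gcnt1, a glycosyltransferase of O-glycan branching, differed by 5.56 percentage points. Col4a1, a collagen of basement membranes, differed by 8.93, Asic1, an acid-sensing ion channel, by 9.35, Ubash3b, a protein phosphatase, by 10.1, Smad2, a mediator of TGF-beta and Nodal signals, by 10.1, and Bend5, which encodes a BEN domain protein, by 10.2. The median over all genes compared was 23.2 points. Col4a1 is also one of the 17 genes above.

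**Figure D5:**
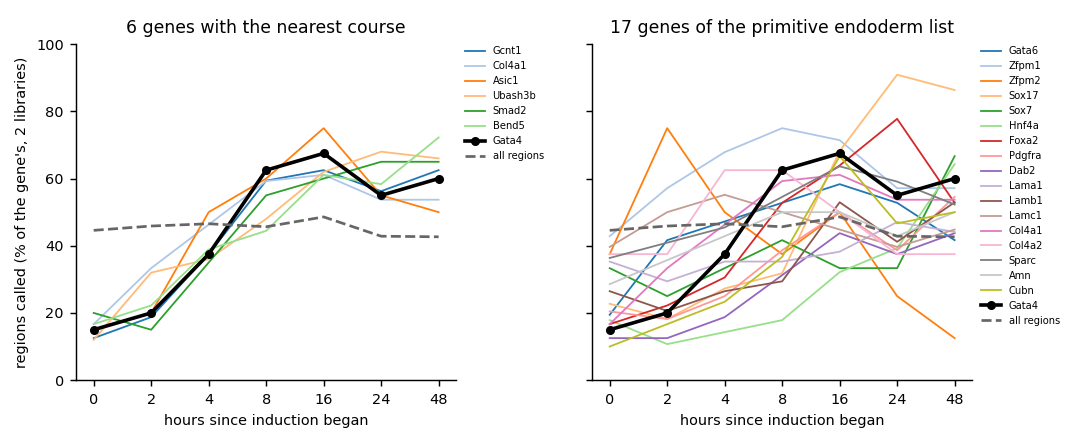
Share of the regions of each gene that were called, in percent, as the mean of the 2 libraries at each evenly spaced time point. Gata4 is in black, all 124598 regions are the dashed line, and the thin lines are the 6 genes with the nearest course (left) and the 17 genes of the PrE list (right). Gata4 goes from 15% at 0 h to 62.5% at 8 h, whereas the dashed line stays between 42.7% and 48.6%.

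Calls near start sites of marker genes did not separate the time points by cell type. A peak within 1 kb of a start site was called in both libraries at every time point for Pou5f1, Sox2, Esrrb and Zfp42 of ES cells, for Gata6, Sox17 and Pdgfra of PrE, and also for Cdx2 of trophectoderm and Pax5 of B cells. The Nanog promoter was called by 2 libraries at 0, 4 and 16 h, by 1 at 2 and 24 h, and by 0 at 8 and 48 h. That of Sox7, of PrE, was called by 1 library at 2 h and by both at every other time point. That of Myod1, a muscle gene, was called by 0 libraries up to 4 h, by 1 at 8 and 24 h, and by 2 at 16 and 48 h. The labelled cell type could therefore not be checked from these calls, and the share of cells that converted was not measured here.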

How the data were processed

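ATAC-seq peak lists of 14 libraries were used. The authors deposited a separate list for each library. They had run the ENCODE pipeline for ATAC-seq, and by the names of the files the peaks had passed an irreproducible discovery rate of 0.05 on pseudoreplicates of that library and a blacklist filter, and replicates were not pooled. Each peak in the deposited lists has 1 unnamed value, which the authors' files leave without a scale and which is treated as a score used only as a rank within its library. The builds mm10 and GRCm38 are named in the submitters' processing notes, and 0 of 839049 peaks ended past a GRCm38 chromosome. The lists hold no counts, so the study's own read-count test was not possible here, and depth and counting error are unknown.

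Peaks were merged, called at 1 bp of overlap and assigned to the nearest start site of a protein-coding transcript (GENCODE M21). Trends over time used exact two-sided permutation tests of calls (regions called in 3 to 11 libraries) or of Spearman's rho (regions called in all 14), with BH adjustment at 0.05 over all regions tested, in Python 3.11.15 with numpy 2.4.6 and pandas 2.3.3. The tests were tested on simulated data. The smallest p of the exact permutation test of calls was 0.000666. A region can therefore pass after adjustment only where many other regions also have a small p. GATA words were sought in 300 bp of GRCm38 around region midpoints. All 20 Gata4 regions are described. The 6 genes of nearest course needed at least 10 regions each. Printed sequences are rising regions with the most GATA matches in the windows as printed, which at +13.7 kb is the one around the highest-ranked peak. Also printed is the region called in every library, which was chosen after its values were seen. The members and the gene lists were chosen with earlier results of these data known. Alternatives covered peak number, merging, overlap, distance, start sites, a replicate block and libraries left out. A Gata4 promoter sequence is not printed, and 1 gene of the PrE list and a motif are not reported here.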

Additional observations from a re-analysis of the deposited data

How the results depend on the processing

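The number of Gata4 regions rising over time stayed between 5 and 8 under stricter peak lists, 50% coverage, wider merging, other distances and 1 start site per gene, and was 4 when regions called in 1 to 13 libraries were tested (chosen after seeing the data). It was 3 without the 0 h libraries, all among the 6, where 9 regions could be tested and the other 3 of the 6 could not. The number falling was 0 throughout. With each library left out in turn, also chosen after seeing the data, 5 to 7 rose and 0 to 0 fell. With 1 replicate number left out altogether no test of calls was run, because the smallest exact two-sided p with 7 libraries is 0.0571. Regions gained at 48 h numbered 7 to 12 under the other settings and 8 to 11 with libraries left out. Regions lost numbered 0 with the 50000 highest-scoring peaks per library, 0 within 25 kb, 2 where a call in 1 library sufficed, and 1 to 2 with libraries left out. Assigned regions ranged from 15 to 26. The mean number called at 48 h was 10 at 50% coverage and 10.5 with the 50000 highest-scoring peaks. Spearman's rho at -10.7 kb was -0.52 for the percentile of peak width in place of score (exact permutation p = 0.0593, adjusted p = 0.154) and 0.0357 to 0.857 with libraries left out. GATA matches over the 20 regions were 16 in the windows at region midpoints, 21 at highest-ranked peaks and 35 in whole regions. Replicate numbers did not pair the libraries, with correlations of deviations between same-numbered libraries of -0.0152 to 0.0124 over 21 pairs of time points, and a fit with the replicate number as a block gave 6 rising and 0 falling. Of the alternatives that did not leave out replicates, 40 of 48 left a value on the same side or within its tolerance. These include the counts of falling regions, which stayed at 0, and settings in which the score trend at -10.7 kb stayed uncalled. Depth limits all absences, since a missing call is not evidence of closed chromatin, and with 2 libraries per time point the exact permutation test of a pair of time points cannot pass the threshold.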
